A study of Mus musculus with 10 samples.

Results

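The 10 mouse Toll-like receptor genes Tlr1, Tlr2, Tlr4, Tlr5, Tlr6, Tlr7, Tlr8, Tlr9, Tlr12 and Tlr13, chosen by name, were followed in bulk polyA RNA sequencing of CT26 tumors. Tlr3 and Tlr11, the other Toll-like receptors tested, are not among them and are given for comparison only. The members are 10 of 36009 genes in the deposited table, and all 10 passed the filter on low counts. CT26 is a mouse colorectal carcinoma cell line, and the wild-type line was grown under the skin of female BALB/c mice. Every tumor was partly resected before treatment, the resected piece was sequenced, and a hydrogel that releases poly(I:C), a synthetic double-stranded RNA, was then laid on the tumor left behind. By the response label, 6 tumors came from responders and 4 from non-responders, and all 10 libraries were untreated when taken. The comparison asked whether receptor RNA present before treatment differed with the later response. The study describes the tumors as biologically independent samples from separate mice, and the labels give no age.

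Toll-like receptors are membrane proteins of innate immune cells that bind microbial molecules. TLR1, TLR2, TLR4, TLR5 and TLR6 sit mainly at the cell surface and bind lipoproteins, lipopolysaccharide or flagellin. TLR7, TLR8, TLR9, TLR12 and TLR13 act in endosomes, where most of them bind nucleic acids, and need the chaperone UNC93B1 to get there. All of the receptors listed signal through the adaptor MyD88. Poly(I:C) is a ligand of TLR3 and of cytosolic RNA sensors, not of these receptors. In solid tumors much of their RNA comes from macrophages, dendritic cells and other leukocytes.

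Libraries held between 23374649 and 38042544 estimated counts. The label of colorectal carcinoma was checked against 7 epithelial markers, of which 2 passed the filter, Cdh1 with between 79 and 233 counts in a tumor and Cdx2 with between 13 and 40. The other 5 were near 0, among them Krt8 with between 0 and 14 counts and Epcam with between 3 and 19. In bulk tumor, fewer cells of a type and less RNA per cell cannot be told apart.

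The stretch before the start of transcription is shown for Tlr8, Tlr9 and Tlr12, the members called higher in responders whose start is the same in RefSeq and GENCODE. Each run is the 120 bases before the start, read 5′ to 3′ on the strand of the gene, from RefSeq sequence on GRCm38. Capitals mark matches, on either strand, to GAAANNGAA, a pattern like the interferon-stimulated response element, or to GAGGAAG, a pattern like the binding site of the myeloid factor PU.1.
Tlr8, chrX:167264330-167264449, minus strand: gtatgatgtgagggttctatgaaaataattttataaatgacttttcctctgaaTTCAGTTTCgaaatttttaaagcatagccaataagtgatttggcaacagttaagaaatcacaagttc
Tlr9, chr9:106222478-106222597, plus strand: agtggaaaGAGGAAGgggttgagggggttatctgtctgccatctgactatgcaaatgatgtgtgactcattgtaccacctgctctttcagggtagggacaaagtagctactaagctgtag
Tlr12, chr4:128618620-128618739, minus strand: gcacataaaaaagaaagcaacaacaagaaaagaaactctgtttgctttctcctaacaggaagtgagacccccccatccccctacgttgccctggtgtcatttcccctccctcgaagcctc
The Tlr8 match lies 67 bases and the Tlr9 match 112 bases before the start, and the Tlr12 window holds neither pattern. Over all 32851 RefSeq promoters searched for 250 bases before the start, 7.13% held GAAANNGAA and 10.6% held GAGGAAG. Over the same 250 bases, Tlr6, which was not called, held GAAANNGAA 115 and 109 bases before a RefSeq start. Tlr1, also not called, held GAGGAAG 23 bases before a RefSeq start. Tlr5, not called either, held neither pattern, and Tlr4 and Tlr7 had no promoter sequence to search. Of the other called members, Tlr13 held GAGGAAG 83 bases before the start and Tlr2 held neither pattern. GGANTTTCC, a pattern like the NF-kB binding site, was also searched, with matches in 1.07% of all promoters and in none of the members searched. No GAAANNGAA match overlaps a GAGGAAG match here, but the Tlr6 matches overlap each other and form a single stretch. A match describes letters only. Whether matches go with calls was not tested.

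All 10 receptors had higher estimates in responders, and 5 of them, Tlr2, Tlr8, Tlr9, Tlr12 and Tlr13, were called higher (edgeR quasi-likelihood test, adjusted p under 0.05 over 16041 genes). Of all genes tested, 4.71% were called higher in responders and 3.35% lower. The median log2 fold change was 0.55 over the receptors and -0.0086 over all genes tested. In 5 receptors (Tlr1, Tlr2, Tlr6, Tlr9 and Tlr12) the lowest responder was above the highest non-responder, as it was in 5.84% of all genes. The calls depended on single tumors. Between 0 and 8 receptors were called when 1 tumor was left out: 0 without responder 3, non-responder 1 or non-responder 4, 1 without responder 1, responder 5 or non-responder 3, 2 without responder 2 or responder 6, 4 without responder 4, and 8 without non-responder 2. Calls over all genes swung in the same fits. They numbered 1293 with all tumors, 17 without responder 3, 16 without non-responder 1 and 0 without non-responder 4. Without responder 1, responder 5 or non-responder 3 they numbered 553, 412 and 366. Without responder 2 or responder 6 they numbered 244 and 735. They rose to 1619 without responder 4, where fewer receptors were called, and to 1897 without non-responder 2. An unadjusted p under 0.05 was found for 8 receptors and 29.1% of all genes with all tumors, for 8 and 25.4% without responder 3, for 8 and 22.4% without non-responder 1, and for 7 and 25.3% without non-responder 4.

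**Figure D1:**
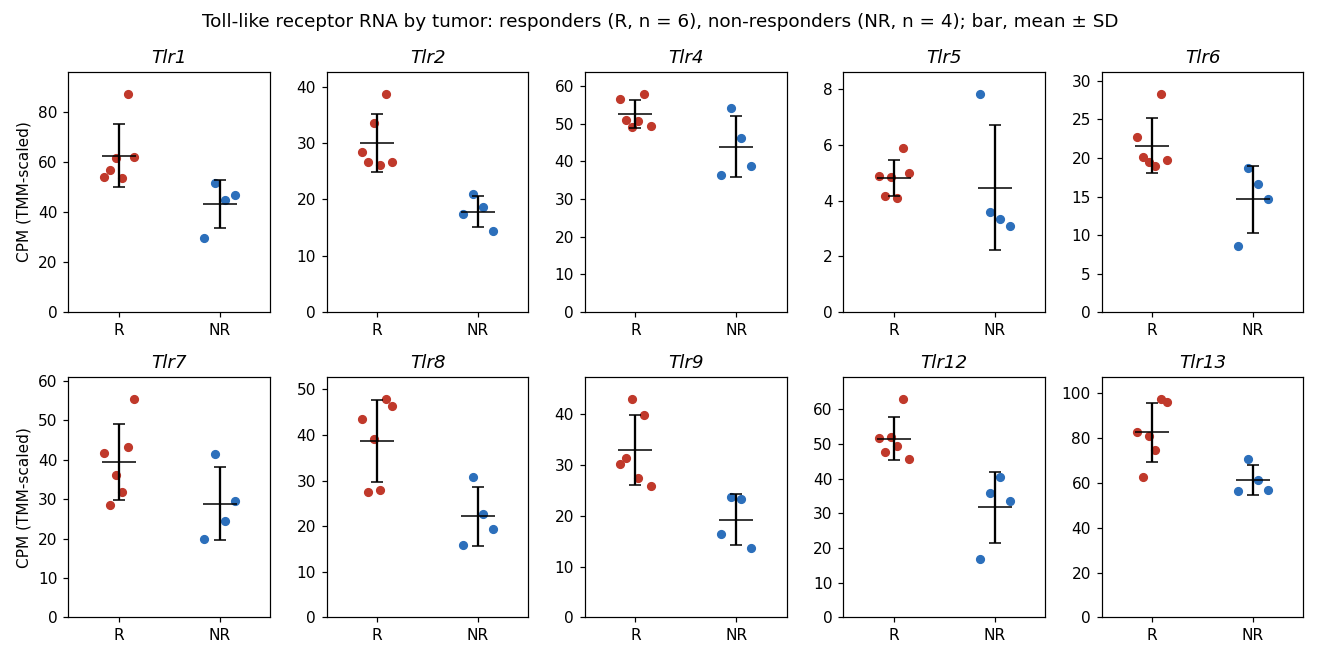
CPM (TMM-scaled, linear axis from 0) of each receptor in each tumor, with a point per tumor and the group mean and SD. Responders lie wholly above non-responders for Tlr1, Tlr2, Tlr6, Tlr9 and Tlr12, while for Tlr5 the highest tumor is non-responder 1 at 7.83 CPM.

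Among the surface receptors, 1 of 5 was called. Tlr2, whose product pairs with TLR1 or TLR6 to bind bacterial lipoproteins (chr3:83836272-83841767), ranged from 26.0 to 38.7 CPM (its count relative to the TMM-scaled total of the library) in responders with a median of 27.5. It measured 17.4, 21.0, 18.7 and 14.3 CPM in non-responders 1 to 4. No responder fell in the range of the non-responders, and the difference was 0.75 ± 0.14 on the log2 scale (± SE), with an edgeR adjusted p of 0.0232. This call was kept in 7 of 10 fits that left out a tumor, the most of any receptor.

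Tlr1 (chr5:64924679-64933563), which binds triacylated lipoproteins with TLR2, ranged from 53.5 to 87.1 CPM in responders (median 59.2) and measured 29.6, 51.4, 44.7 and 46.8 CPM in the non-responders. The groups did not overlap, yet the difference missed the threshold (log2 fold change 0.53 ± 0.17, SE; edgeR adjusted p = 0.0663). Tlr6 (chr5:64952031-64960097), its neighbor on the chromosome and the partner of TLR2 for diacylated lipoproteins, ranged from 19.0 to 28.3 CPM in responders (median 20.0). It measured 8.60, 18.7, 16.6 and 14.7 CPM in non-responders 1 to 4. The groups did not overlap here either, and the difference was 0.56 ± 0.19 on the log2 scale (± SE), with an edgeR adjusted p of 0.0825. Tlr1 and Tlr6 transcripts share 607 stretches of 31 bases, the length on which Kallisto matches reads, of 3322 in Tlr1 and 3709 in Tlr6. The split of reads that match only shared stretches is uncertain. Summed counts of Tlr1 and Tlr6 gave 0.54 ± 0.17 (SE; edgeR adjusted p = 0.0652), an alternative added after the data were seen.

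Tlr4 (chr4:66827584-66930284), the lipopolysaccharide receptor, ranged from 49.2 to 57.9 CPM in responders (median 50.9) and measured 36.4, 54.2, 46.1 and 38.7 CPM in the non-responders. Of the responders, 2 were above every non-responder, and the difference did not pass (log2 fold change 0.26 ± 0.10, SE; edgeR adjusted p = 0.1205). Tlr5 (chr1:182954788-182976044), the flagellin receptor, ranged from 4.09 to 5.90 CPM in responders (median 4.87). It measured 7.83, 3.58, 3.34 and 3.11 CPM in non-responders 1 to 4. Non-responder 1 was the highest tumor of all and the other non-responders the lowest, and the difference was 0.11 ± 0.25 on the log2 scale (± SE), with an edgeR adjusted p of 0.797. Without non-responder 1 the log2 fold change was 0.53, and without non-responder 4 it was -0.03.

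Among the endosomal receptors, 4 of 5 were called, and Tlr7 was the exception. Whether surface and endosomal receptors differed was not tested. Tlr7 (chrX:167304929-167330558), a sensor of single-stranded RNA, ranged from 28.5 to 55.4 CPM in responders (median 38.85) and measured 19.8, 41.5, 24.5 and 29.5 CPM in the non-responders. The groups overlapped, and the difference was 0.45 ± 0.22 on the log2 scale (± SE), with an edgeR adjusted p of 0.194. Its neighbor Tlr8 (chrX:167242696-167264329), related to human TLR8, a sensor of RNA breakdown products, ranged from 27.6 to 47.9 CPM in responders (median 41.3). It measured 15.8, 30.9, 22.7 and 19.3 CPM in non-responders 1 to 4. Of the responders, 4 were above every non-responder, and the log2 fold change of 0.81 ± 0.21 was the largest of the 10 members (SE; edgeR adjusted p = 0.0443). Its call was kept in 2 of 10 fits that left out a tumor.

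Tlr9 (chr9:106222598-106226883), the receptor for unmethylated CpG DNA, ranged from 25.8 to 43.0 CPM in responders (median 30.7) and measured 16.5, 23.7, 23.2 and 13.7 CPM in the non-responders. The groups did not overlap, and the difference was 0.78 ± 0.19 on the log2 scale (± SE), with an edgeR adjusted p of 0.0372. Tlr12 (chr4:128615443-128618619), a receptor for the parasite protein profilin, ranged from 45.5 to 63.0 CPM in responders (median 50.6). It measured 17.0, 35.8, 40.5 and 33.6 CPM in non-responders 1 to 4, so the groups did not overlap, and the difference was 0.70 ± 0.19 on the log2 scale (± SE), with an edgeR adjusted p of 0.0478. Tlr13 (chrX:106143204-106160493), which detects a sequence of bacterial ribosomal RNA, ranged from 62.8 to 97.4 CPM in responders (median 81.9) and measured 56.3, 70.7, 61.4 and 56.6 CPM in the non-responders. Responder 2 lay within the range of the non-responders, and the difference was 0.43 ± 0.12 on the log2 scale (± SE), with an edgeR adjusted p of 0.0484. Calls of Tlr9 and Tlr13 were each kept in 3 of 10 fits that left out a tumor, and that of Tlr12 in 1. For comparison, Tlr3 differed by 0.59 ± 0.19 on the log2 scale (± SE), with an edgeR adjusted p of 0.0726. Tlr11, which like TLR12 binds profilin, averaged 5.70 CPM in responders and 3.003 in non-responders with no overlap, a difference of 0.92 ± 0.20 with an edgeR adjusted p of 0.0310.

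**Figure D2:**
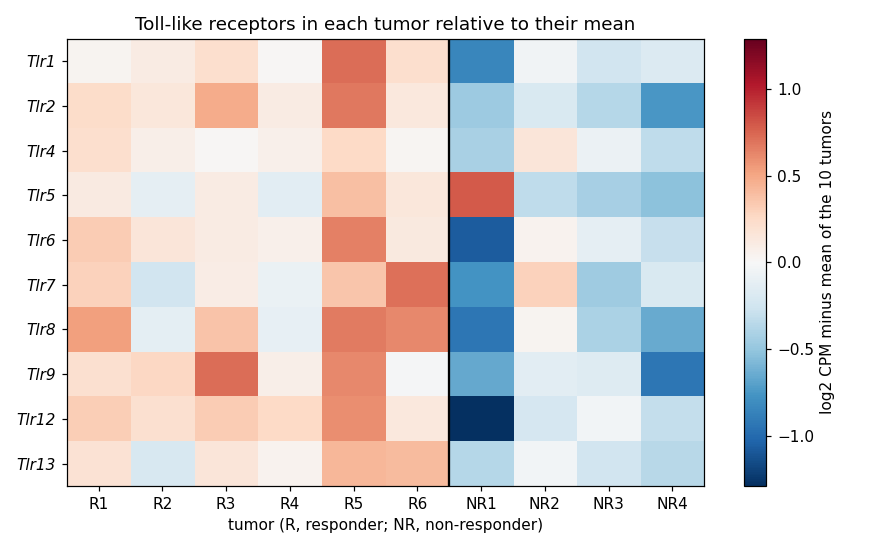
Level of each receptor (rows) in each tumor (columns), as log2 CPM minus the receptor's mean over the 10 tumors; red is above and blue below. Responder 5 is the highest tumor for 7 receptors and non-responder 1 the lowest for 7, with Tlr5 in non-responder 1 running the other way.

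Across receptors, single tumors moved many members at once. Responder 5 was highest for 7 of the 10 receptors, and non-responder 1 was lowest for 7. After group means were removed, log2 CPM of pairs of receptors correlated across the 10 tumors with a median Pearson r of 0.55 over 45 pairs. The highest value was 0.93 for Tlr6 with Tlr12 and the lowest -0.74 for Tlr5 with Tlr12. These values describe 10 tumors that share library and tissue content. In log2 CPM, non-responder 1 was at 4.09 for Tlr12, against 5.07 to 5.34 in the other non-responders. It was at 3.12 for Tlr6, against 3.88 to 4.23, and at 2.98 for Tlr5, against 1.67 to 1.87. How far the highest and lowest r rest on that tumor was not tested.

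Levels of different receptors were compared as CPM per kb of merged exons. In responders the order was Tlr13 (19.2 ± 3.04, SD), Tlr1 (18.7 ± 3.76), Tlr12 (16.2 ± 1.92), Tlr8 (10.8 ± 2.51), Tlr2 (9.95 ± 1.69), Tlr7 (9.66 ± 2.36), Tlr9 (9.48 ± 1.997), Tlr4 (9.45 ± 0.678), Tlr6 (5.79 ± 0.956) and Tlr5 (1.005 ± 0.138). Only the steps from Tlr12 to Tlr8, from Tlr4 to Tlr6 and from Tlr6 to Tlr5 were larger than the larger SD of the neighbors. In non-responders Tlr13 (14.2 ± 1.56) led and Tlr5 (0.932 ± 0.470) was last again, Tlr4 (7.89 ± 1.45) ranked next after Tlr12, and only the steps from Tlr9 to Tlr6 and from Tlr6 to Tlr5 exceeded the larger SD. With the longest coding transcript as the length, Tlr4 averaged 12.03 in place of 8.83 CPM per kb over all tumors.

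**Figure D3:**
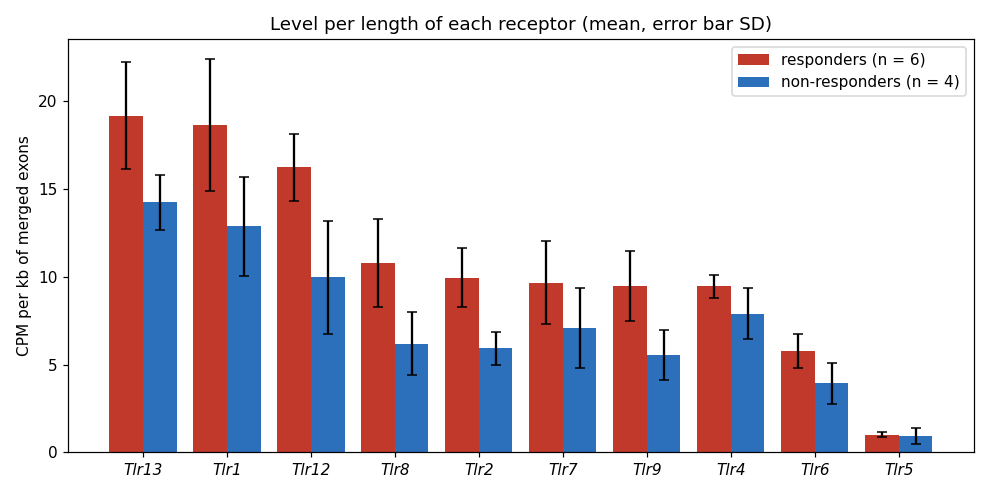
Level of each receptor in CPM per kb of merged exons (linear axis from 0), as group mean and SD for responders and non-responders. Tlr13, Tlr1 and Tlr12 lead in both groups and Tlr5 is lowest, at 1.005 and 0.932 CPM per kb.

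Marker scores of other cell types were set beside the receptors. Of 8 macrophage markers 8 were tested and 5 were called higher in responders, as were 4.71% of all genes tested. Those not called were Csf1r at 0.24 (edgeR adjusted p = 0.13), Mertk at 0.03 and Mrc1 at -0.13 on the log2 scale. The mean log2 CPM of the 8 markers ranged from 8.15 to 8.69 in responders and from 7.70 to 8.10 in non-responders. The two-sided p was 0.00952 by exact permutation (n = 6 and 4), or 0.0556 after adjustment over 14 marker lists. The NK cell score was 1.02 higher in responders with no overlap (exact permutation p = 0.00476, the smallest the design allows, or 0.0556 after adjustment). The T cell score was 1.26 higher, skeletal muscle 0.94, B cell 0.54 and inflammatory monocyte 0.41. Plasmacytoid dendritic cell was 0.40 higher, conventional dendritic cell 0.37 and endothelial cell 0.20. Neutrophil was at -0.019, fibroblast at -0.023 and skin keratinocyte at -0.46. Colorectal carcinoma, with 2 of 7 genes past the filter, was at -0.52 with no overlap (exact permutation p = 0.0190, or 0.0556 after adjustment). Before adjustment, 9 of the 14 lists had an exact permutation p under 0.05. Besides macrophage, NK cell and colorectal carcinoma, these were T cell, skeletal muscle, B cell, inflammatory monocyte, conventional dendritic cell and adipocyte. None of the 14 lists passed after adjustment, and 10 did without responder 4. Only the macrophage and adipocyte scores were entered as covariates. With the macrophage score as a covariate, 0 receptors and 0 of all genes were called by edgeR (1110 genes had an unadjusted p under 0.05), 0 receptors had an unadjusted p under 0.05, and the estimates of Tlr1, Tlr4, Tlr6, Tlr7 and Tlr8 fell below 0. Largest under that covariate were Tlr5 at 0.35, Tlr2 at 0.33 and Tlr9 at 0.33 on the log2 scale. With the score of 5 adipocyte markers, 4 of which passed the filter on low counts, which was 2.21 higher on the log2 scale in responders, 0 receptors and 0 of all genes were called by edgeR (1657 genes had an unadjusted p under 0.05), 2 receptors had an unadjusted p under 0.05 and all 10 estimates stayed above 0. The macrophage score did not overlap between the groups, so with 6 and 4 tumors that fit cannot tell macrophage content from response. The part of cell content in the receptor differences was not tested.

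**Figure D4:**
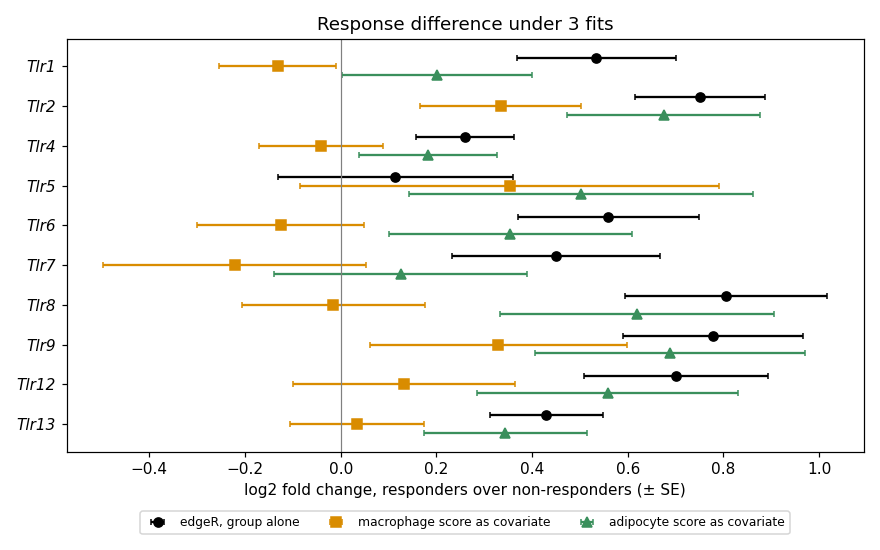
Log2 fold change of each receptor, responders over non-responders, with SE, from edgeR with the group alone (black), with the macrophage marker score (orange) and with the adipocyte marker score (green) as a covariate. Black points are all above 0, while 5 orange points lie below 0.

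In group-centered log2 CPM, macrophage scores correlated with receptors between -0.17 (Tlr5) and 0.91 (Tlr1) over 10 tumors. Other scores did so as closely or more for some receptors. NK cell had r = 0.93 with Tlr6 and 0.94 with Tlr12, and inflammatory monocyte had 0.94 with Tlr12. Non-responder 1 was the lowest tumor for Tlr6, Tlr12 and both of these scores. Its part in these r values was not tested. The gene most like each receptor was sought among those averaging at least 1 CPM. Slc16a6 was closest to Tlr1 (r = 0.99), Blnk to Tlr2 (r = 0.95) and Rap1gap2 to Tlr4 (r = 0.96). Gas7 was closest to Tlr5 (r = 0.95), B2m to Tlr6 (r = 0.99) and Ccdc93 to Tlr7 (r = 0.98). Apobec1 was closest to Tlr8 (r = 0.96) and Tmod3 to Tlr9 (r = 0.98). Cd200r4 was closest to Tlr12 (r = 0.98) and Serinc3 to Tlr13 (r = 0.96). Each of these genes was picked for the highest r among those searched, so its r is high in part by selection. All values in this paragraph are descriptions with no test.

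Of 64 other genes of the pathway, 62 were tested, 11 were called higher in responders and 2 lower, and their median log2 fold change was 0.17. Over all genes tested, 4.71% were called higher and 3.35% lower, with a median log2 fold change of -0.0086. Unc93b1, the chaperone that carries nucleic acid receptors to endosomes, ranged from 229 to 344 CPM in responders and measured 110, 173, 157 and 154 CPM in the non-responders (log2 fold change 0.86 ± 0.14, SE; edgeR adjusted p = 0.0207). Of the proteases that cut the endosomal receptors, Ctss (0.79) and Lgmn (0.44) rose and Ctsl fell by 0.40. Ctsb (0.28) and Ctsk (-0.14) were not called. Among 6 coreceptors, Cd180 (0.97) and its partner Ly86 (0.75) rose, while Cd14 was at 0.07 with an edgeR adjusted p of 0.670.

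Of the 5 adaptors, Ticam2 rose (0.66), and Myd88, the shared adaptor of these receptors, missed the threshold at 0.26 (edgeR adjusted p = 0.0618). Of 16 kinases and ligases 3 rose: Irak2 (0.55), Ikbke (0.50) and Irak4 (0.36). Irf5, a transcription factor of the MyD88 branch, rose by 0.43 on the log2 scale. Of 8 inhibitors, Irak3 rose (0.98) and Sigirr fell by 0.32. None of the 11 tested target genes was called by edgeR, their median was 0.47, and 5 (45.5%) had an unadjusted p under 0.05, as had 29.1% of all genes tested. Left-out tumors moved the pathway calls between 0 and 20, with 0 without responder 3, non-responder 1 or non-responder 4, where 26 each had an unadjusted p under 0.05. In those fits 25.4%, 22.4% and 25.3% of all genes did. With the macrophage or the adipocyte score as a covariate, 0 were called by edgeR, with 3 and 13 at an unadjusted p under 0.05. That p was reached by 6.92% and 10.3% of all genes, of which 0 were called.

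**Figure D5:**
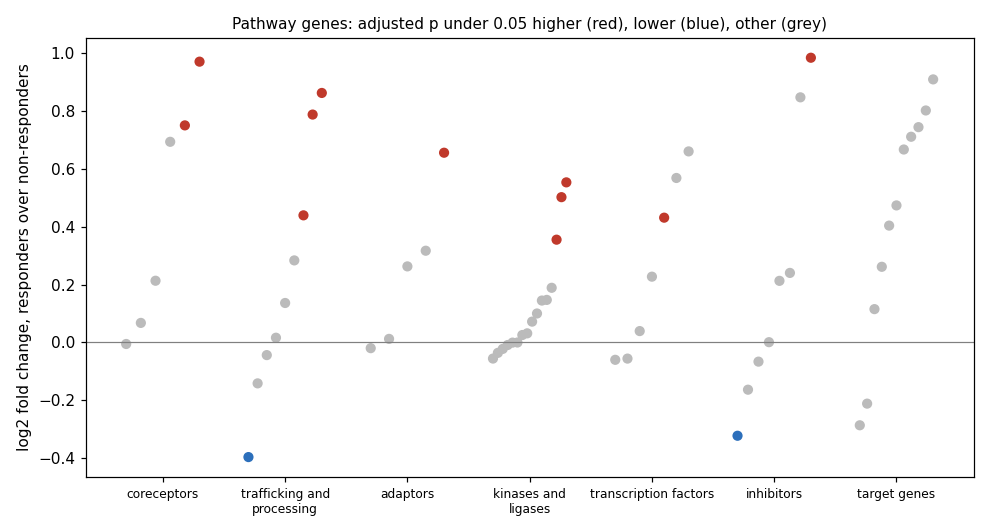
Log2 fold change, responders over non-responders, of the 62 tested pathway genes by role, with genes called higher in red, lower in blue and not called in grey. Called genes lie in every role but the target genes.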

How the data were processed

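RNA of 10 CT26 tumors, 6 responders and 4 non-responders by the response label, was sequenced as polyA libraries. The authors estimated transcript abundance with Kallisto and summed it to genes with tximport on mm10 (GRCm38), and deposited them as estimated counts (expected counts) with no scaling to depth. Counts were rounded, and edgeR 4.0.16 (R 4.3.3) was used: filterByExpr (minimum count 10, minimum total 15) kept 16041 genes, libraries were scaled by TMM, and the two-sided quasi-likelihood test was adjusted by Benjamini-Hochberg with a threshold of 0.05. SE was taken as the absolute log2 fold change over the root of the F statistic. log2 CPM used a prior count of 2. Marker scores, mean log2 CPM over all genes of a list, were compared by an exact permutation test over 210 splits, whose smallest p is 0.00476. Alternatives used DESeq2 1.42.0 and limma 3.58.1. Gene coordinates and lengths came from GENCODE on GRCm38. All 10 receptors, the pathway genes that passed, Tlr3, and the gene most like each receptor are named. The members and lists were chosen with earlier results of these data known. Replicate numbers follow accession order and pair no tumors. Methods were tested on simulated data, where edgeR and limma-voom kept false calls near the threshold while DESeq2 made more false calls than its threshold allows. Counting strand and annotation release are not given in the sources used here.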

Additional observations from a re-analysis of the deposited data

Results flagged for a closer look

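A tumor stood far from the rest of its group (Dixon's ratio of gap to range above the 95% critical value) in 5 of 48 groups of values examined, where chance alone gives about 2.4. Tlr1 in responder 5 was 6.45 log2 CPM against 5.74 to 5.95 in the other responders (ratio 0.708). Tlr5 in non-responder 1 was 2.98 log2 CPM against 1.67 to 1.87 in the other non-responders (ratio 0.846). The inflammatory monocyte score was 3.04 in non-responder 1 against 3.90 to 3.94 in the other non-responders (ratio 0.956). The NK cell score was 3.84 in responder 5 against 2.81 to 3.18 (ratio 0.645). The skin keratinocyte score, over 5 genes of which 1 passed the filter on low counts, was -0.69 in non-responder 2 against -2.85 to -2.69 (ratio 0.926).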

How the results depend on the processing

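With DESeq2 size factors, no filter, the study's own CPM filter or counts thinned to the smallest library, 5 receptors were called. These fits called 8.02%, 3.61%, 8.03% and 7.52% of all genes tested, against 8.06% in the main fit. DESeq2's own test called 7 receptors and 23 pathway genes, and limma-voom 4 and 14, without Tlr13 (adjusted p = 0.0557). Of all genes, DESeq2's test called 16.2% and limma-voom 6.75%. DESeq2 made more false calls than its threshold allows on simulated data, so its larger counts were not taken as firmer. With the macrophage score as a covariate, 0 receptors and 0 pathway genes were called, and the log2 fold change was -0.13 for Tlr1, -0.041 for Tlr4, -0.13 for Tlr6, -0.22 for Tlr7 and -0.015 for Tlr8. With the adipocyte score, 0 receptors and 0 pathway genes were called. Leaving out 1 tumor gave 0 to 8 called receptors, 0 to 20 pathway genes, 5 to 8 receptors with no overlap and 0 to 10 marker lists, and Tlr5 was at -0.031 without non-responder 4 and 0.53 without non-responder 1. Other receptor estimates kept their sign when a tumor was left out. The share of all genes with the lowest responder above the highest non-responder, 5.84%, was counted with all tumors only. No paired analysis was possible because the replicate numbers are accession order only. Each receptor had 77 or more counts in each tumor, and Tlr5 had the fewest. The SE of Tlr5 was 0.25 with all tumors, 0.24 with thinned counts and 0.14 without non-responder 1.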
